A study of Mus musculus with 9 samples.

Results

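The type I interferon-stimulated antiviral genes were followed across resting (M0) macrophages, inflammatory (M1) macrophages and M1 macrophages that received photobiomodulation (PBM, irradiation with near-infrared laser light). They comprise 41 genes given as a list of mouse symbols, and each was matched through its Ensembl gene identifier to 1 row of both deposited expression tables, which hold 55655 rows each. All 41 were found. The cells were bone marrow-derived macrophages from wild type C57BL/6 mice aged 6 to 8 weeks, grown for 7 days with 10 ng/mL M-CSF, the growth factor that turns marrow precursors into macrophages. The 3 M0 libraries came from such cells without further stimulation. The 3 M1 libraries came from cells given lipopolysaccharide (LPS, a bacterial cell wall component) and interferon-γ (IFN-γ), and the 3 M1+PBM libraries from cells given LPS, IFN-γ and PBM. Per the study's methods, PBM was given while LPS and IFN-γ were being added, not to cells polarized beforehand. RNA of the M1 and M1+PBM groups was taken 12 h after PBM. The length of exposure to LPS and IFN-γ is not given for these libraries apart from this. A culture differentiated in M-CSF and polarized with LPS and IFN-γ is a model of the inflammatory macrophage outside its tissue. Neither the labels nor the methods say whether the 3 libraries of a group came from separate animals, so p-values measure only the spread between these libraries. The values are FPKM (fragments scaled by transcript length and library depth), which allow levels to be compared between genes.

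Interferon-stimulated genes are the output of a defence program that cells switch on when they meet virus or bacterial products. LPS engages Toll-like receptor 4, whose adaptors lead to secretion of interferon-β. Interferon-β binds the type I receptor on the same and neighbouring cells, and the kinases JAK1 and TYK2 then activate transcription factors, among them STAT2. With IRF9 these form a complex that binds the interferon-stimulated response element (ISRE). IFN-γ acts through its own receptor and on another element, the gamma-activated site (GAS), so many of these genes can respond to both stimuli. Their products sense foreign nucleic acid, block translation of viral RNA, deplete nucleotides, tag proteins with ISG15 or hold virus particles at membranes.

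Sequences around ISRE cores are shown for members of 8 roles, because the 41 genes were listed for their response to interferon and their promoters can be read directly. GAS matches were counted but are not marked in these sequences. RefSeq promoter windows of GRCm38.p6, from 250 bases before to 50 bases after a transcription start, were found for 30 of the 41 members by symbol, and genes with more than 1 start were counted once. The ISRE core GAAANNGAAA, sought on both strands, occurred in 18 of the 30 members (60%) and in 1079 of 27025 genes with a window (3.99%). The GAS letters TTCNNNGAA, which read the same on both strands, occurred in 7 of the 30 members (23.3%) and in 2582 of all genes (9.55%). Both motifs were found in 4 members (13.3%), and in Bst2 and Ifitm3 a GAS overlapped an ISRE core. Each sequence below is given 5′ to 3′ in the direction of transcription, ends at or before the start, and has every ISRE core in capitals on whichever strand it was found. Among the members of a role that hold a core upstream of the start, the one with the highest mean FPKM in M1 is shown, and overlapping cores appear as 1 run of capitals.
Rsad2, chr12:26456538-26456597, minus strand: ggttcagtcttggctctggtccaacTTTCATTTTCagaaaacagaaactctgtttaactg
Isg15, chr4:156200850-156200909, minus strand: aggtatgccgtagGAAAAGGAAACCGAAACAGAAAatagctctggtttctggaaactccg
Ifit3, chr19:34583373-34583441, plus strand: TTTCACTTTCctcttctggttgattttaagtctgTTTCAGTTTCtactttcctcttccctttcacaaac
Oas1a, chr5:120907526-120907564, minus strand: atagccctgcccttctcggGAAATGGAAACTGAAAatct
Bst2, chr8:71537562-71537621, minus strand: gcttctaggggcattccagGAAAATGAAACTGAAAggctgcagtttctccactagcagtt
Ifi205, chr1:174031855-174031914, minus strand: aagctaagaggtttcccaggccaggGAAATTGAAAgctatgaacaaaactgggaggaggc
Slfn5, chr11:82951922-82951981, plus strand: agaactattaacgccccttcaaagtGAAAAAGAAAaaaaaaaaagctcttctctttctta
Trim30a, chr7:104465195-104465254, minus strand: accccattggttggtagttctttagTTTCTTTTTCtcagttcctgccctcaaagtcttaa

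Isg15 carried 3 overlapping cores, between positions -78 and -57 from its start, and Oas1a and Bst2 carried overlapping pairs. Ifit3 carried 2 separate cores on the opposite strand, and the single core of Rsad2 lay at positions -120 to -111. No core was found in the windows of Ifi209, Cmpk2, Herc6, Dtx3l, Isg20, Ifit2, Oasl1, Oasl2, Samd9l, Xaf1, Ifi35 and Ifi44, which says only that these letters are not in these windows. No window was held for Usp18, Rtp4, Parp9, Parp14, Oas2, Mx1, Mx2, Ifi204, Zbp1, Dhx58 and Tor3a.

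**Figure D1:**
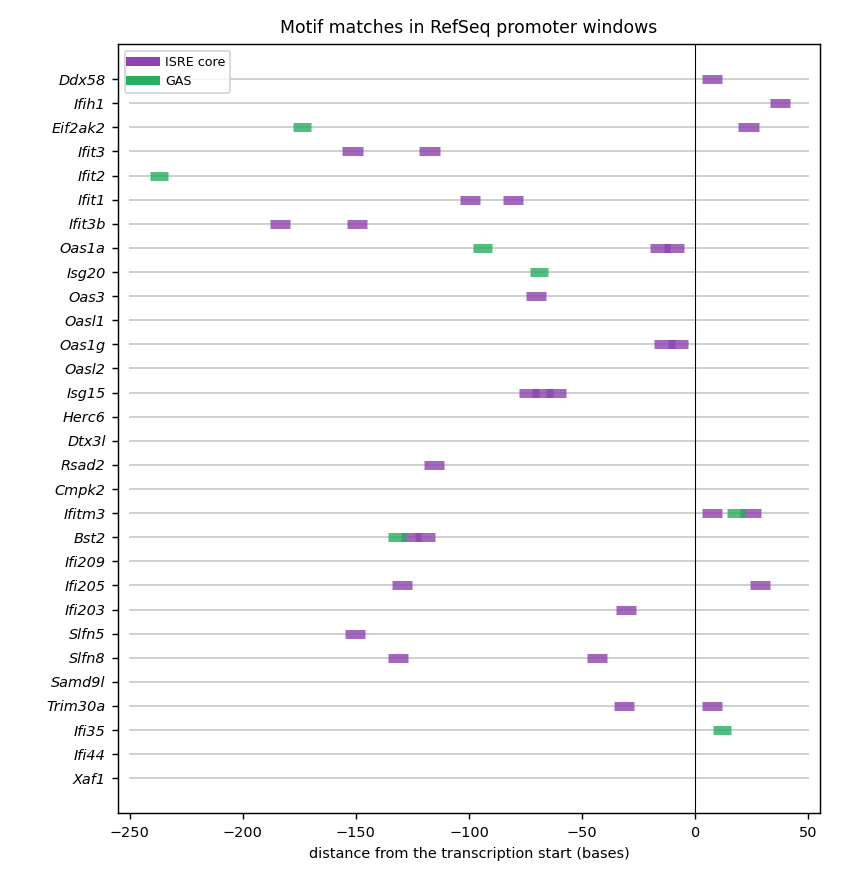
Position of ISRE core (purple) and GAS (green) matches in the RefSeq promoter windows of 30 members, in bases from the transcription start at 0, with genes grouped by role from the top. Matches of Slfn8 and Trim30a come from 2 windows each, drawn on 1 line. The ISRE cores lie between positions -188 and 42, and 9 of the 30 members hold neither motif.

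Depth was estimated as the value that put the most low FPKM values on whole-fragment steps. It was 30930000 to 42150000 fragments per library, and the groups overlapped. Only 25.9% to 27.3% of low values fell on such steps, so depth and the fragment numbers drawn from it are rough. All 8 macrophage markers reached 1 FPKM in every library, and all 7 M1 markers did so in every M1 and M1+PBM library. All 7 conventional dendritic cell markers, 9 of 9 lymphoid and 6 of 6 erythroid markers stayed under 1 FPKM in all 9 libraries, as did 6 of 8 markers of plasmacytoid dendritic cells, the cells best known for making type I interferon, and 7 of 10 neutrophil markers. Of the neutrophil markers, 2 were listed at 0 in all 9 libraries. The summed FPKM of the 10 was 3.12 to 5.74 in M0, 9.91 to 28.8 in M1 and 8.09 to 16.5 in M1+PBM. Most of it in M1 was S100a8, at 16.7, 6.90 and 27.2 FPKM. M0 replicate 3 stood apart before any comparison was made. The summed FPKM of 7 M1 markers was 87.1 there against 2.78 and 2.36 in M0 replicates 1 and 2, and that of 8 stromal markers was 197.3 against 7.20 and 5.83. Most of the M1 marker sum in M0 replicate 3 was Irg1, at 77.6 FPKM. Most of the stromal sum there was Col1a1 and Col1a2, at 122.75 and 45.9 FPKM. In bulk RNA a larger number of expressing cells and more RNA per cell cannot be told apart, and this holds for every level given here.

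All 41 antiviral genes were higher in M1 than in M0 macrophages. For each of them every M1 library lay above every M0 library, and the mean log2(FPKM + 1) differed by at least 1, a 2-fold difference. The same was true of 1087 of 13915 rows (7.81%), those in which 3 or more of the 9 libraries reached 1 FPKM. The median difference of the members was 3.50 on the log2 scale, between 2.03 for Eif2ak2 and 7.48 for Rsad2, whereas the median over all rows was -0.34. As a ratio of mean FPKM, M1 exceeded M0 by 3.93 to 123 times. The genes were also abundant after stimulation, with 24 of 41 above a mean of 100 FPKM in M1, compared with 2.75% of all rows. M0 libraries were deposited in a table of their own, so that the table and the group cannot be told apart, and these differences were described without a test. The genes were listed for their response to interferon and with earlier results of these data known, so these shares are not independent support.

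**Figure D2:**
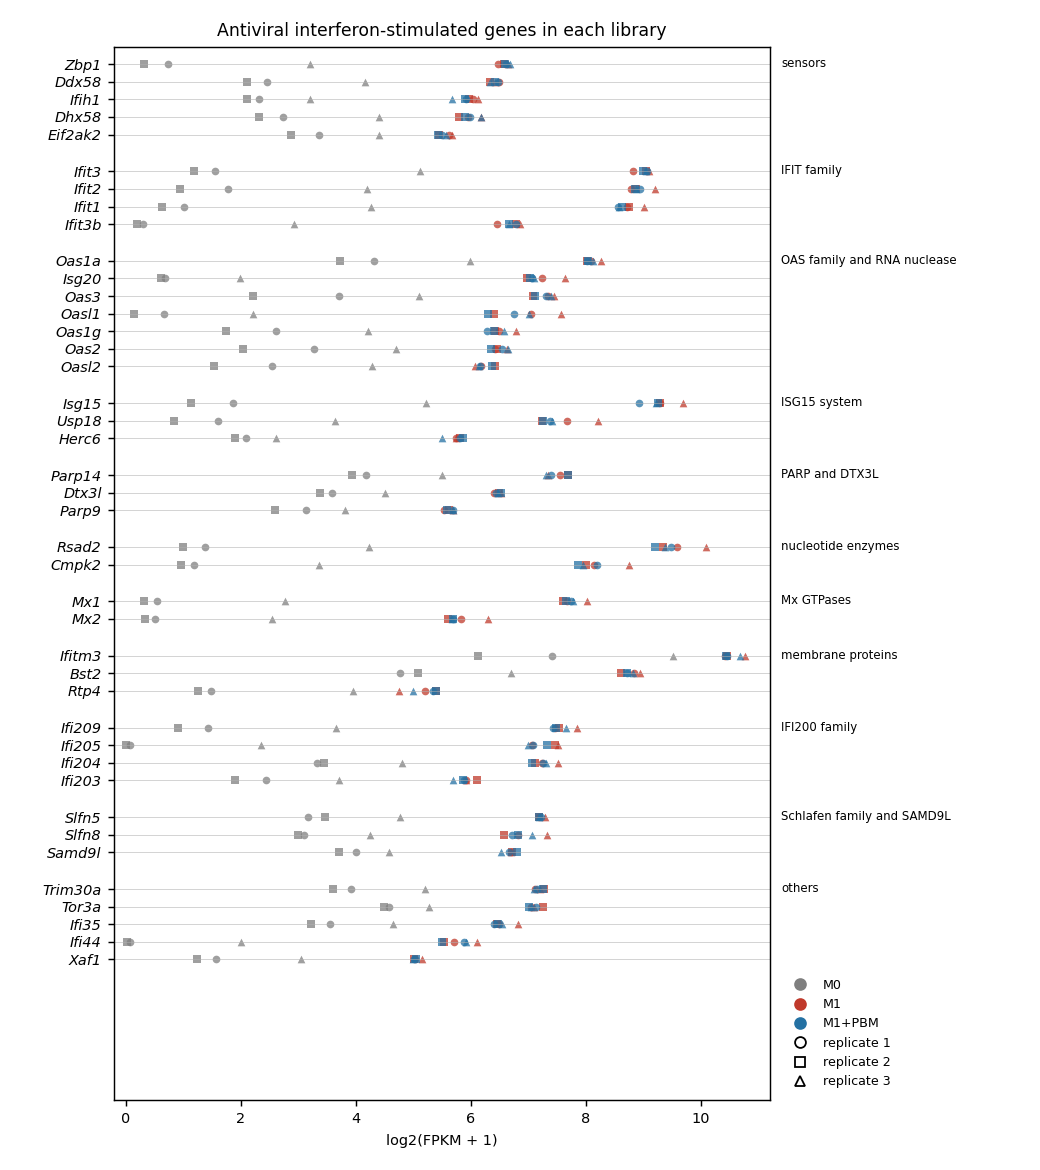
Level of each of the 41 antiviral genes in each library, as log2(FPKM + 1), grouped by role, with M0 in grey, M1 in red, M1+PBM in blue and a marker shape for each replicate. Every red and blue point lies to the right of the 3 grey points of its gene, and the grey triangle of M0 replicate 3 is the rightmost of the M0 points for all 41.

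The sensors of foreign nucleic acid were led by Zbp1, which recognizes left-handed double-stranded nucleic acid. Zbp1 stood at 0.658, 0.239 and 8.18 FPKM in M0 replicates 1 to 3, at 88.3, 94.5 and 98.9 in M1, and at 97.4, 95.3 and 102 in M1+PBM. The RNA helicases Ddx58 (RIG-I), Ifih1 (MDA5) and their regulator Dhx58 (LGP2) differed between M1 and M0 by 3.51, 3.50 and 2.83 on the log2 scale. Eif2ak2, the kinase PKR that halts translation when it binds double-stranded RNA, showed the smallest difference of the 41 genes. Its FPKM was 9.29, 6.32 and 20.1 in M0, 48.1, 42.6 and 49.9 in M1, and 44.1, 41.9 and 46.8 in M1+PBM. Eif2ak2 and the helicases were thus already above 3 FPKM in each resting library, while Zbp1 was under 1 FPKM in M0 replicates 1 and 2.

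The IFIT proteins, which bind viral RNA ends and block its translation, formed the group with the second highest median difference, 6.51 on the log2 scale over 4 members. Ifit3 was measured at 1.94, 1.27 and 33.9 FPKM in M0, at 451, 530.5 and 548 in M1, and at 534, 507 and 532 in M1+PBM. Ifit1 had the second largest difference of all members (6.86), with 1.02, 0.554 and 18.3 FPKM in M0, 423, 431 and 518 in M1, and 378, 396 and 383 in M1+PBM. Ifit2 lay in the same range as Ifit3 in M1, at 500.1 ± 77.5 FPKM (SD, n = 3) against 509.9 ± 51.8, a gap smaller than either SD. Ifit3b was lower, at 104 ± 15.0 FPKM in M1. Ifit3 and Ifit3b are near-identical copies, as are Oas1a and Oas1g among the OAS genes and, in part, the IFI200 genes and Mx1 and Mx2, and how the authors' counting divided shared fragments is not given in the sources used here. The level of each of these is therefore uncertain against its relative.

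The OAS enzymes make the 2′-5′ oligoadenylates that activate RNase L, and Isg20 is an RNA exonuclease. Oas1a was the most abundant, with 18.9, 12.3 and 62.1 FPKM in M0, 273, 260.3 and 308 in M1, and 258, 264 and 279.6 in M1+PBM. Oas1a, Oas1g, Oas2, Oas3 and Oasl2 differed between M1 and M0 by 3.17 to 3.72 on the log2 scale. Isg20 (6.20) and Oasl1 (6.01), an OAS-like protein without the synthase activity, differed by more, since both were under 1 FPKM in M0 replicates 1 and 2. Depth sets a limit there. At most 20.2 and 19.7 fragments are estimated to lie behind Isg20 in these libraries, against at most 6517 in M1 replicate 1.

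The ISG15 system attaches and removes a ubiquitin-like tag. Isg15 itself stood at 2.63, 1.19 and 36.4 FPKM in M0, at 625, 627 and 828 in M1, and at 487, 611 and 598 in M1+PBM, a difference of 6.69 between M1 and M0. Usp18, which takes ISG15 off proteins and restrains the type I receptor, differed by 5.68, and Herc6, the mouse ligase of the system, by 3.56. The level of Isg15 in M1 (693 ± 116 FPKM) was thus above that of Usp18 (216 ± 72.9) and Herc6 (53.5 ± 1.51) in every M1 library.

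Rsad2 and Cmpk2 are neighbouring genes of nucleotide metabolism. Rsad2 encodes viperin, which makes a chain-terminating nucleotide, and Cmpk2 a mitochondrial nucleotide kinase. Rsad2 showed the largest difference of all 41 members, with 1.58, 0.988 and 17.9 FPKM in M0, 771, 649 and 1091 in M1, and 718, 593 and 665 in M1+PBM. Its ratio of mean FPKM between M1 and M0 was 123, and that of Cmpk2 was 84.5. Only Ifitm3 had a higher mean than Rsad2 in M1.

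Mx1 and Mx2 belong to a family of dynamin-like GTPases known for trapping viral nucleocapsids. Their RNA does not show whether a working protein was made in these C57BL/6 cells. Mx1 was at 0.464, 0.241 and 5.79 FPKM in M0, at 203, 193 and 260.5 in M1, and at 215, 202 and 219 in M1+PBM. The difference between M1 and M0 was 6.56 for Mx1 and 4.79 for Mx2. Both belong to the 8 members under 1 FPKM in M0 replicates 1 and 2, the others being Zbp1, Ifit3b, Oasl1, Isg20, Ifi205 and Ifi44.

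Of the membrane proteins of the list, Ifitm3 and Bst2 act where virus enters or leaves the cell. Ifitm3, which blocks fusion in endosomes, was the most abundant member in every group, at 170.2, 68.9 and 735 FPKM in M0, 1369.7, 1400.4 and 1756 in M1, and 1413, 1392 and 1648 in M1+PBM. Bst2 (tetherin), which holds budding particles, reached 446 ± 51.8 FPKM in M1 from 54.1 ± 42.6 in M0, and the receptor chaperone Rtp4 reached 34.2 ± 7.72 from 5.90 ± 7.45. Ifitm3 and Rtp4 had the smallest gaps between groups, with the lowest M1 library 1.86 and 1.78 times the highest M0 library.

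The IFI200 proteins bind DNA or regulate transcription. Ifi209 led them with 1.70, 0.881 and 11.6 FPKM in M0, 175, 185 and 229.6 in M1, and 171, 177 and 202 in M1+PBM. Ifi205 showed the largest difference of the group (6.55), as it was listed at 0 in M0 replicate 2 and at 0.0523 FPKM in M0 replicate 1, where at most 5.30 fragments are estimated to lie behind it. Ifi204 and Ifi203 differed by 3.44 and 3.30. The Schlafen genes restrict translation and cell growth, and Samd9l restricts poxviruses. Slfn5 stood at 7.98, 9.97 and 26.3 FPKM in M0, at 145, 144 and 156 in M1, and at 148, 145 and 145 in M1+PBM. Slfn8 and Samd9l differed by 3.45 and 2.61.

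The PARP genes and Dtx3l, which modify proteins with ADP-ribose and ubiquitin, had the lowest median difference among the roles, 2.65 over 3 members. Parp14 was at 17.1, 14.2 and 44.4 FPKM in M0, 186, 207 and 161 in M1, and 167, 205 and 158 in M1+PBM. Parp9, the partner of Dtx3l, was at 7.73, 5.02 and 13.1 in M0, 45.3, 48.0 and 50.5 in M1, and 50.7, 47.1 and 50.7 in M1+PBM. Each of the 3 was above 5 FPKM in every resting library.

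Among the remaining genes Trim30a, a negative regulator of Toll-like receptor signalling, was at 14.01, 11.1 and 35.8 FPKM in M0, 137, 154 and 146 in M1, and 142, 153 and 136 in M1+PBM. Tor3a, an ATPase of the endoplasmic reticulum, had the second smallest difference of all members (2.35), with 23.0, 21.5 and 37.5 FPKM in M0, 131, 152 and 136 in M1, and 139.9, 129 and 131 in M1+PBM. Ifi44 differed by 5.09, the pro-apoptotic gene Xaf1 by 3.11 and Ifi35 by 2.79.

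The 41 genes shared a pattern within the M0 group. M0 replicate 3 was the highest M0 library for 41 of 41 members, by 1.52 to 78.0 times the higher of M0 replicates 1 and 2 (median 3.70). Over all rows this library was the highest for 39.0%, with a median ratio of 0.925. M0 replicate 2 was the lowest for 38 members. The members' spread in M0 was accordingly wide, with a median coefficient of variation of 93.7%, against 13.1% in M1 and 7.31% in M1+PBM. The M1 markers and stromal markers that were raised in M0 replicate 3 moved with the members, and their part in these values was not tested. The median difference between M1 and M0 was 4.11 without M0 replicate 3 and 2.45 against M0 replicate 3 alone. All 41 members were still at least 2-fold higher in M1 in the latter case, with the smallest difference, 1.03, for Ifitm3.

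**Figure D3:**
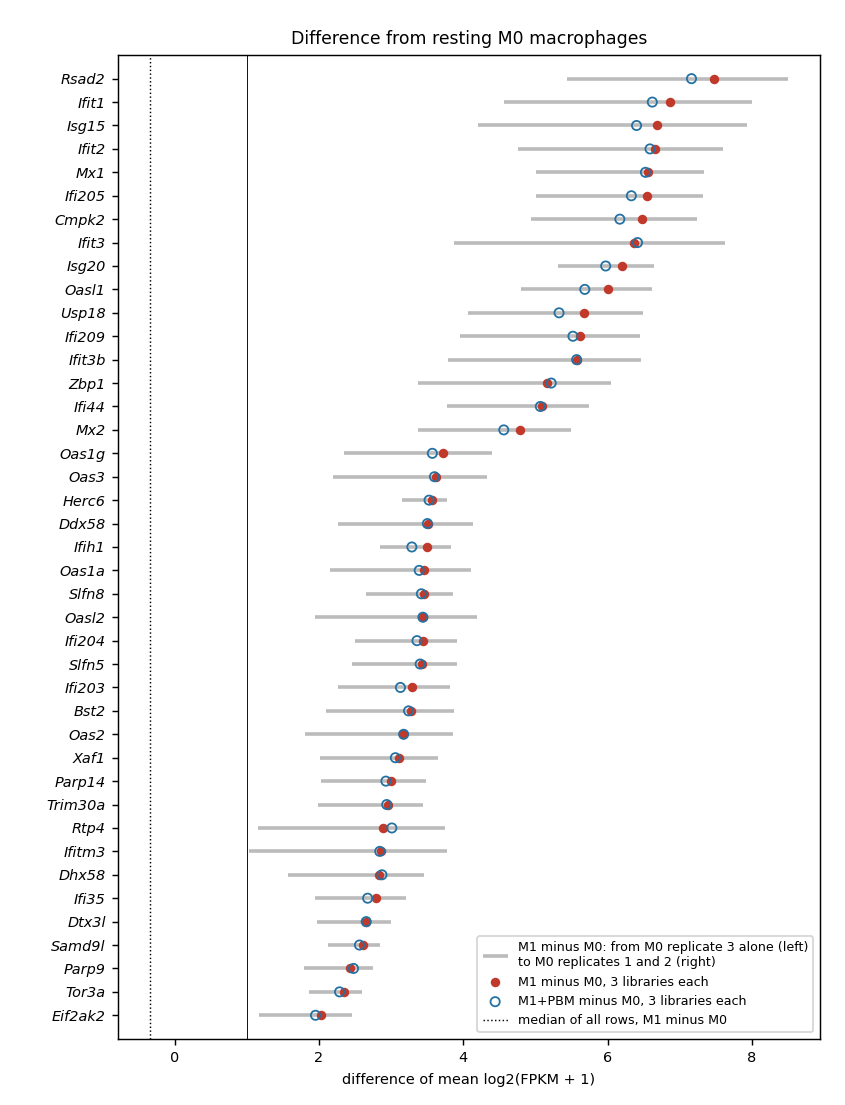
Difference of mean log2(FPKM + 1) from M0 for each member, with M1 as filled red points and M1+PBM as open blue circles (3 libraries a group) and the grey bar running from the value against M0 replicate 3 alone to the value against M0 replicates 1 and 2. The red points run from 2.03 for Eif2ak2 to 7.48 for Rsad2, and the blue circles from 1.95 to 7.16 for the same genes. All lie to the right of the solid line at 1 and of the dotted line at -0.34, the median of all rows for M1 minus M0.

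The M1+PBM macrophages also stood above M0 for all 41 members, by the same criterion that 992 of 13915 rows met (7.13%). The median difference was 3.44, from 1.95 for Eif2ak2 to 7.16 for Rsad2, beside a median of -0.27 for all rows. These values and those of M1 rest on the same 3 M0 libraries.

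PBM did not move any of the 41 antiviral genes past the thresholds in M1 macrophages. None of the 41 combined an unadjusted p of at most 0.05 with a log2 fold change of at least 1 in size by limma's test, where 32 of the 12238 rows tested did (0.261%). The comparison addressed whether PBM changed the transcriptome of M1 macrophages. Without the fold criterion, 0 of 41 members were higher at p of at most 0.05, against 366 rows (2.99%), and 0 were lower, against 177 rows (1.45%). The lowest p of a member was 0.0858, for Ifit1, and the lowest adjusted p was 0.90 (Benjamini-Hochberg over all rows). All 41 members had passed the filter, which kept rows reaching 1 FPKM in 3 or more of the 6 libraries, and 1 row of the whole table, not a member, had an adjusted p under 0.05.

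The intervals show how far a change could have been seen. In the fit that left out the replicate number, the 95% interval of the log2 fold change lay within 1 of 0 for 40 members. It lay within 0.5 of 0 for 30. The exception to the former was Oasl1, whose fold change was -0.32 with an interval from -1.10 to 0.46. Changes smaller than these bounds are not excluded by the intervals, and a p that misses the threshold does not show equal expression. Fold changes ranged from -0.35 for Usp18, which was -0.58 without M1 replicate 2 (unadjusted p = 0.023, limma) and -0.10 without M1 replicate 3, to 0.13 for Rtp4. No other member reached p of at most 0.05 without 1 library, and the M1+PBM mean was between 0.755 and 1.09 times the M1 mean. The ratio was under 0.8 for Usp18, Oasl1, Rsad2 and Cmpk2 and above it for the other 37.

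**Figure D4:**
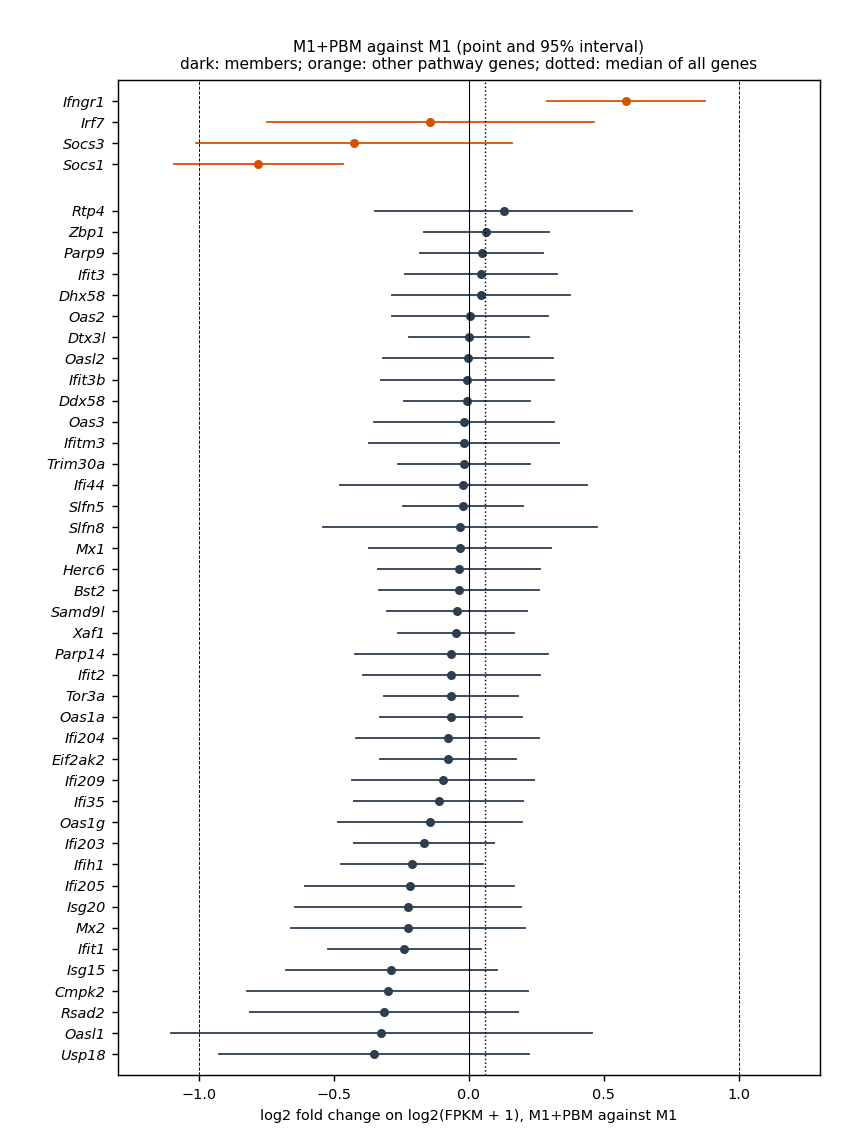
Log2 fold change of M1+PBM against M1 with its 95% interval from limma (3 libraries a group), for the 41 members in dark blue and 4 further interferon pathway genes in orange, with the dashed lines at -1 and 1 and the dotted line at the median of all rows tested (0.06). All 41 member intervals cross 0, and those of Socs1 and Ifngr1 do not.

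By value alone, 34 of the 41 members were lower with PBM and 7 were higher, and their median fold change was -0.05 beside 0.06 over all rows tested, of which 34.4% were lower. The split was uneven between replicates. Comparing libraries of the same number, 22 members were lower in replicate 1, 23 in replicate 2 and 36 in replicate 3, with medians of -0.03, -0.01 and -0.18. Over all rows tested, 43.6%, 45.4% and 31.9% were lower in replicates 1 to 3, with medians of 0.03, 0.01 and 0.13. M1 replicate 3 was the highest M1 library for 32 of 41 members, whereas it was the highest for 29.2% of all rows tested. Without that library 22 members were lower, with a median of -0.01 beside 0.03 over all rows. Median-of-ratios scaling gave 40 lower members and medians of -0.12 and -0.00, and quantile normalization gave 24 and medians of -0.01 and 0.02. The median of the members stayed below 0 and below that of all rows in these 3 fits, while its size and the number of lower members changed.

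In 4 members the 3 M1+PBM libraries lay below the 3 M1 libraries without overlap, as did 309 of all rows (2.52%). None was higher without overlap, against 1041 rows (8.51%). These 4 were picked out after their values were seen. Ifit1 stood at 423, 431 and 518 FPKM in M1 and 378, 396 and 383 in M1+PBM, a fold change of -0.24 (SE 0.12) that did not pass the test. Isg15 gave -0.29 (SE 0.16), with the lowest M1 library at 625 and the highest M1+PBM library at 611 FPKM. Ifih1 stood at 64.5, 62.0 and 68.6 FPKM in M1 and 59.2, 59.0 and 50.1 in M1+PBM, a fold change of -0.21 (SE 0.11). Ifi203 stood at 59.2, 67.8 and 59.7 in M1 and 58.0, 57.3 and 50.7 in M1+PBM, a fold change of -0.17 (SE 0.11). For each, the exact two-sided permutation p was 0.1, the smallest that 3 libraries against 3 can give.

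The medians of the roles ran from -0.31 to 0.00. The nucleotide enzymes had the lowest of them, over Rsad2 (-0.32, SE 0.21) and Cmpk2 (-0.30, SE 0.22), followed by the ISG15 system at -0.29 over 3 members. In both Rsad2 and Cmpk2 the highest value of the 6 libraries was M1 replicate 3, at 1091 and 431 FPKM. Usp18 had 204, 150.4 and 295 FPKM in M1 and 166, 153 and 170.3 in M1+PBM, so its groups overlapped through M1 replicate 2. The sensors had a median of -0.01, the membrane proteins -0.02, the IFIT family -0.04 and the PARP group 0.00. Ddx58 (-0.01, SE 0.10) and Dtx3l (0.00, SE 0.09) were among the most evenly expressed genes, with M1 means of 84.7 ± 4.31 and 88.2 ± 3.95 FPKM and M1+PBM means of 84.3 ± 4.48 and 88.3 ± 2.67. No difference between roles was tested.

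With the replicate number as a block, 1 member reached a p of at most 0.05. This was Oasl1, lower by 0.32 on the log2 scale (SE 0.11 with the block, unadjusted p = 0.031, adjusted p = 0.58, limma). Its FPKM was lower in M1+PBM within each number, at 107 against 132, 77.4 against 84.1 and 129 against 189. Isg15 and Ifit1 had p-values of 0.0502 and 0.0567 in that fit. Over all rows with the block, 396 were lower (3.24%) and 592 higher (4.84%) at p of at most 0.05, and no member had an adjusted p under 0.05.

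Upstream of the antiviral genes, the ligands were at the limit of detection. None of 21 interferon genes passed the filter. Ifnb1, which encodes interferon-β, was listed at 0 in all 3 M0 libraries, at 0.291, 0.374 and 0.676 FPKM in M1, and at 0.401, 0.128 and 0.368 in M1+PBM, with overlap between M1 and M1+PBM. The subunits of the type I receptor were expressed throughout, with Ifnar1 at 23.8 ± 3.61 FPKM in M0, 43.5 ± 1.81 in M1 and 45.8 ± 8.18 in M1+PBM, and Ifnar2 at 23.1 ± 0.609, 50.4 ± 2.65 and 49.5 ± 2.18. Of 8 receptor and kinase genes tested, 1 was higher with PBM at p of at most 0.05, beside 2.99% of all rows. None was lower, beside 1.45% of all rows. The list is too small to set against these shares. The higher gene was Ifngr1, the ligand-binding chain of the IFN-γ receptor, with 8.73, 7.42 and 7.57 FPKM in M1 and 12.4, 10.8 and 13.9 in M1+PBM. Its fold change was 0.58 (SE 0.12, unadjusted p = 0.0026, adjusted p = 0.90, limma). It was the only gene of this list lower in M1 than in M0 without overlap and at least 2-fold, with a difference of -1.40. Its p with PBM in limma was at most 0.012 under each alternative fit, but these fits reuse the same libraries. The exact two-sided permutation p was 0.1, and Ifngr1 was named because of its p in limma. The kinase Jak2 had the largest difference from M0 in the list (3.27).

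Of 10 transcription factors, 0 had a p of at most 0.05 with PBM. By the criterion used for the members, which 7.81% of all rows met, 5 were higher in M1 than in M0. Irf7, which amplifies type I interferon production, differed most, by 5.64, with 1.53, 0.926 and 13.8 FPKM in M0, 199, 153 and 289.8 in M1, and 190.2, 157 and 219 in M1+PBM. Like most members, it was highest in replicate 3 of both M0 and M1. Stat2, which acts on the ISRE together with IRF9, differed from M0 by 3.36, and its fold change with PBM was -0.05 (SE 0.17). Irf9 stood at 13.1 ± 2.19 FPKM in M1 and 13.3 ± 1.35 in M1+PBM, and Irf1, the factor most tied to IFN-γ, at 49.4 ± 16.8 and 44.3 ± 3.005. Among 12 genes of the sensing adaptors and their kinases, 0 had a p of at most 0.05 with PBM. By that criterion 4 were higher in M1 than M0, beside 7.81% of all rows, led by the RNA receptor Tlr3 (2.29).

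Of 8 inhibitors tested, 1 was lower with PBM at p of at most 0.05, beside 1.45% of all rows. None was higher, beside 2.99% of all rows. The lower gene was Socs1, the feedback inhibitor that binds JAK kinases. It stood at 0.145, 0.200 and 0.449 FPKM in M0, at 16.3, 12.7 and 13.3 in M1, and at 7.15, 8.78 and 7.40 in M1+PBM, a fold change of -0.78 (SE 0.13, unadjusted p = 0.00073, adjusted p = 0.81, limma). The 3 M1+PBM libraries lay below the 3 M1 libraries, with an exact two-sided permutation p of 0.1, the smallest possible here. In limma the unadjusted p was at most 0.0044 under each alternative fit, those without 1 library included. These fits reuse the same libraries and are not independent support. Socs3, which restrains signalling by interleukin-6 type cytokines, had 243, 194 and 369 FPKM in M1 and 182, 178 and 221 in M1+PBM (-0.43, SE 0.24), and its groups overlapped. In limma with the replicate block, its unadjusted p was 0.027. For reference, the M1 marker Nos2 was at 229 ± 101 FPKM in M1 and 80.9 ± 13.0 in M1+PBM, a fold change of -1.38 (SE 0.38, unadjusted p = 0.0097, adjusted p = 0.90, limma). The 7 M1 markers did not move alike. Il6 (-2.29) and Cd86 (-0.50) also had an unadjusted p of at most 0.05 in limma. Il12b (-0.84), Cd40 (-0.40), Irg1 (-0.24) and Cxcl9 (0.07) did not. The differences between these genes and the members were not tested.

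**Figure D5:**
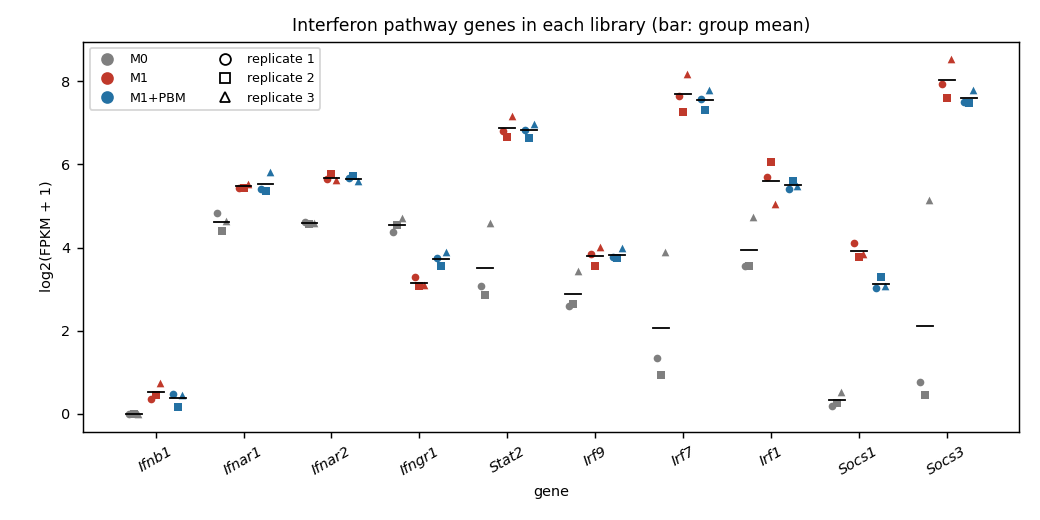
Level of 10 interferon pathway genes in each library as log2(FPKM + 1), with M0 in grey, M1 in red, M1+PBM in blue, a marker shape for each replicate and a bar at the group mean. Ifnb1 stays under 1 in every library, the Socs1 points of M1+PBM lie below those of M1, and the Ifngr1 points of M1+PBM lie between those of M1 and M0.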

How the data were processed

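The authors deposited FPKM values per gene for 9 libraries in 2 tables, with the 3 M0 libraries apart. The methods name Cufflinks methods for the values and strand-specific libraries are given per the labels. The submitters' processing notes list Bowtie 0.12.2 and mm9 without a role, and annotation and filters are not given in the sources used here. Values stood on whole-fragment steps in only 25.9% to 27.3% of low values (10% if even, tolerance 0.05), so no reads were recovered and no count test was run. The M1+PBM and M1 libraries were compared by limma 3.58.1 in R 4.3.3 (lmFit, eBayes with trend) on log2(FPKM + 1), which understates changes of low genes, for the 12238 rows that reached 1 FPKM in 3 or more of 6 libraries. The fit was tested on simulated data with planted changes larger than those of any member and no link between replicates. That test does not show how well small changes are found. M0 entered no test. The main fit left out the replicate number, and a fit with the number as a block, which pairs M1 and M1+PBM libraries, was an alternative. Deviations from group means correlated with r of 0.157, 0.469 and 0.462 for equal numbers and -0.491 to 0.0328 for others. Deviations within a group of 3 sum to 0, so these r values are not independent of each other. Members and lists were chosen with earlier results of these data known. Every member was named. Values in every library were given for the member highest in M1 of each role, and for the 3 largest and 3 smallest differences from M0. Pathway genes were named if p was at most 0.05, from a set of 10 core genes, or for the largest difference of their list. 1 of these is not reported here.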

Additional observations from a re-analysis of the deposited data

How the results depend on the processing

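The comparison was repeated with each library left out in turn, with the replicate block, with eBayes but no trend, after quantile normalization or scaling by the median of ratios, with 0.1 as pseudocount, and with the filter either dropped or raised to a mean of 5 FPKM. No member passed both thresholds under any of them. In limma's fits 1 member reached p of at most 0.05 with the replicate block (Oasl1) and 0 to 1 did so without 1 library. Without M1 replicate 2 this was Usp18 (-0.58, unadjusted p = 0.023 in limma). The pairing of the numbers changed no other member's call, and outside the list it added Socs3, 5 further family genes and Gbp3, all lower. Of the pathway genes, Socs3 also passed without M1 replicate 2 (-0.63) and Irf1 without M1 replicate 3 (-0.38). Over all rows the 32 genes past both thresholds became 75 with a pseudocount of 0.1 (52 lower), 45 with the block, and 27 to 89 without 1 library. Leaving out M1 replicate 2 gave 67, and leaving out M1+PBM replicate 2 gave 89. The 41 members stayed higher than M0 under each alternative, with medians of 3.23 to 4.11 for M1 and 3.10 to 4.04 for M1+PBM. Depth limits the 8 members under 1 FPKM in M0 replicates 1 and 2, and the ligands in all groups.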

Other observations

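Interferon-stimulated genes outside the list were described in the same way. Of 33 further members of the same families that were matched, 29 were tested against PBM, 0 had a p of at most 0.05 in either direction by limma without the replicate block, and 22 of 29 were higher in M1 than in M0 without overlap and at least 2-fold, where 7.81% of all rows were. With the block, 5 of the 29 were lower at an unadjusted p of at most 0.05 in limma and 0 were higher, beside 3.24% and 4.84% of all rows. These were Ifit1bl1 (-0.61), Slfn4 (-0.50), Trim30c (-0.45), Ifi206 (-0.26) and Ifi208 (-0.26), each with an adjusted p of 0.58, and they were named after their values were seen. Ifit1bl1 had the largest difference from M0 in this group (7.28), with 0.140, 0.123 and 0.688 FPKM in M0, 175, 125 and 367 in M1, and 141, 88.3 and 179.8 in M1+PBM. It shares sequence with Ifit1, and how shared fragments were divided is not given in the sources used here.

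Of 35 other interferon-stimulated genes, 34 were tested, and 0 had a p of at most 0.05 with PBM in limma without the block. With the block 1 was lower (Gbp3, -0.38, unadjusted p = 0.047, adjusted p = 0.58, limma), beside 3.24% of all rows. By the same criterion 29 were higher in M1 than in M0, beside 7.81% of all rows. Ms4a4c, a membrane protein of the MS4A family, had a larger difference from M0 (7.504) than any member of the antiviral list, with 0.568, 0.0732 and 2.30 FPKM in M0, 311, 263 and 403 in M1, and 329.8, 263 and 327 in M1+PBM. Ifi27 was the only one lower in M1, with 45.2, 35.4 and 32.2 FPKM in M0, 16.9, 16.8 and 11.6 in M1, and a mean of 16.5 ± 0.527 (SD, n = 3) in M1+PBM. Gbp3 and Ifi27 were named after their values were seen.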
